A study of Mus musculus with 15 samples.

Results

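Motor neurons that supply the tibialis anterior (TA), the flexor of the ankle at the front of the shin, were compared with motor neurons that supply the peroneus longus (PL), its neighbour on the outer side of the leg. The comparison set the 3 TA libraries against the 3 PL libraries, which are 6 of the 15 RNA-seq libraries of the study. Every library of each pool entered. The test was fitted on all 15 libraries, so that all pools shared an estimate of the spread. The mice of both pools were wild type. The tracer, the B subunit of cholera toxin coupled to Alexa 555, was injected into one muscle at postnatal day 4, and traced cells were cut by laser from 12 µm frozen sections of spinal cord at day 6. Each library pooled 30 to 40 captured cells from 2 to 5 animals, and per the labels cords in which the injection had spread beyond its muscle were not used. RNA of other cells lying in a cut area can enter a library. The other 9 libraries were made in the same way from the pools of the calf muscle gastrocnemius (GS), the toe extensor extensor digitorum longus (EDL) and the small muscles within the foot (IF). Libraries of a pool are biological replicates by the labels' wording, yet no label says which animals went into which library. The p-values here therefore set a difference against the spread between pooled libraries, estimated over all pools, and not between animals.

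A motor pool is the group of spinal motor neurons that supplies one muscle, and its neurons lie together in the ventral horn. Motor neurons are cholinergic, and pools are known to differ in transcription factors, cadherins, axon guidance receptors, neuropeptides and channels. The pool of a muscle also holds large alpha neurons, which drive the muscle fibres, and small gamma neurons, which set the sensitivity of the muscle spindles.

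Genes were counted in reads, and levels are given as TMM-scaled CPM, the reads of a gene per 1000000 scaled reads of its library. They compare a gene between libraries and not different genes with each other. Values are listed for libraries 1, 2 and 3 of a pool in that order. Total counts were between 5775369 and 7042076 in TA libraries and between 4417114 and 8488368 in PL libraries. The TA libraries held reads for between 13092 and 13835 genes, and PL 1, PL 2 and PL 3 for 15188, 11019 and 10548. Of the 14340 genes tested, 9.76% to 13.7% had no read in a TA library, and 4.87%, 25.7% and 29.2% had none in PL 1, PL 2 and PL 3. The rank correlation between libraries of 1 pool was 0.775 to 0.804 for TA and 0.657 to 0.742 for PL, so the PL libraries were the less alike. A gene is called here at a Benjamini-Hochberg adjusted p under 0.05 for TA minus PL in edgeR's quasi-likelihood test, fitted on all 15 libraries. It is said to have no overlap when all 3 TA libraries lie on one side of all 3 PL libraries.

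**Figure D1:**
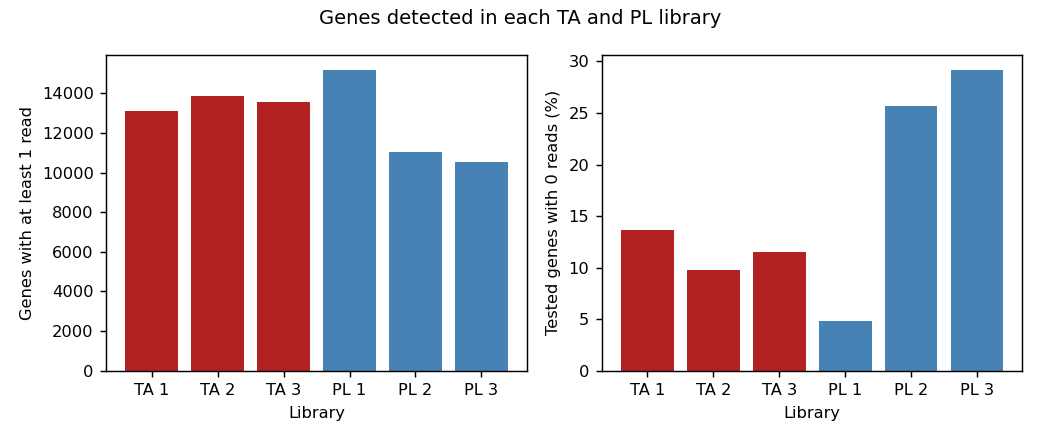
Genes detected in each of the 3 TA libraries (red) and the 3 PL libraries (blue). Left, the number of genes with at least 1 read; right, the percentage of the 14340 tested genes with 0 reads, which is highest in PL 2 (25.7%) and PL 3 (29.2%).

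The motor neuron markers Chat, Slc5a7, Prph, Nefh, Calca, Uchl1, Isl2 and Mnx1 had reads in all 6 libraries, as did Foxp1, a marker of limb motor neurons. Isl1, a transcription factor of young motor neurons, had no read in any of them. Slc5a7, the choline transporter, had 1336, 1173 and 1817 CPM in TA libraries and 1003, 1906 and 1850 CPM in PL libraries. Chat, the enzyme that makes acetylcholine, had 93.1, 149 and 222 CPM in TA libraries and 241, 478 and 495 CPM in PL libraries. Its libraries did not overlap, but the difference was not called, with a log2 fold change (TA minus PL) of -1.39 ± 0.41 (SE) and an edgeR adjusted p of 0.133. Fewer cells of a type in a library and less RNA per cell cannot be told apart in pooled cells such as these.

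Of the 14340 genes tested, 33 were called between TA and PL (0.230%), 9 of them higher in TA (0.0628%) and 24 lower in TA (0.167%). At an unadjusted p under 0.05 there were 2483 genes (17.3%). Each of the 33 called genes had no overlap between the pools. No overlap by itself was much more common and was found for 1457 genes (10.2%), with all TA libraries above all PL libraries for 897 (6.26%) and below them for 560 (3.91%). The 897 genes take in many that PL 2 and PL 3 did not detect: both had 0 reads for 237 of them, and only 454 had a read in all 3 PL libraries. Of the 560 genes on the other side, 473 had a read in all 3 TA libraries. The nearest libraries of the pools were at least 2-fold apart, or one pool had no read, for 313 of the 897 and for 122 of the 560 genes, and for 8 of the 9 genes called higher and 19 of the 24 called lower in TA. The count of called genes was 1800 without PL 1, 76 without PL 2, 72 without PL 3 and 28 without PL 2 and PL 3 together (0.171% of the 16385 genes then tested), of which 16 were among the 33. A fit on the 6 TA and PL libraries alone called 1 gene of 11364 (0.00880%), Glp1r, and had 544 genes at an unadjusted p under 0.05. DESeq2 called 1065 genes (7.43%) and limma voom 60 (0.418%) in place of edgeR's 33.

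**Figure D2:**
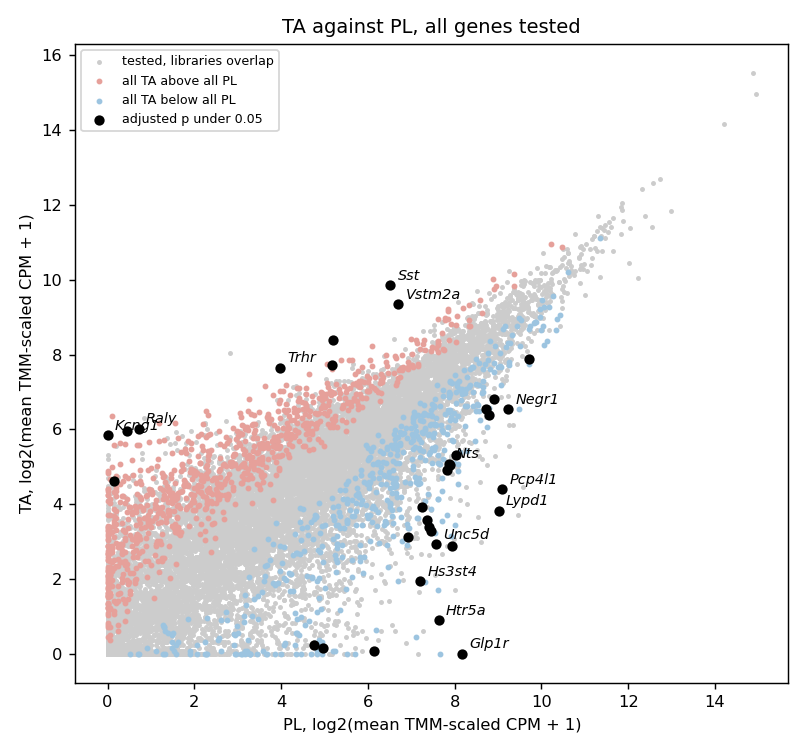
Mean level in TA (vertical) against mean level in PL (horizontal), each as log2(mean TMM-scaled CPM + 1), for the 14340 genes tested. Black points are the 33 called genes, 9 above and 24 below the diagonal; red and blue points are the 897 and 560 genes with all TA libraries above or below all PL libraries.

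A pair of peptide genes stood on opposite sides: Sst, the precursor of the inhibitory peptide somatostatin, was higher in TA, and Nts, the precursor of neurotensin, was lower in TA. Their promoters are shown because they are the genes called in the list of peptide precursors, one on each side. They are RefSeq windows of the build GRCm38.p6 that run from 250 bases before to 50 bases after the gene's start, on the minus strand at chr16:23890795-23891094 for Sst and at chr10:102490369-102490668 for Nts. Capitals mark TGACGTCA, the palindromic cAMP response element, which reads the same on both strands.
Sst: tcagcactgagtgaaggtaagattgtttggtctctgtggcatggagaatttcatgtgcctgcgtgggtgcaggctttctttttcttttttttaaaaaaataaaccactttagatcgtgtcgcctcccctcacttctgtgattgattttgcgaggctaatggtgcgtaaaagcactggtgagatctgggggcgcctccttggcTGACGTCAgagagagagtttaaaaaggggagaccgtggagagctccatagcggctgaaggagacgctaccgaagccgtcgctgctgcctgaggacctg
Nts: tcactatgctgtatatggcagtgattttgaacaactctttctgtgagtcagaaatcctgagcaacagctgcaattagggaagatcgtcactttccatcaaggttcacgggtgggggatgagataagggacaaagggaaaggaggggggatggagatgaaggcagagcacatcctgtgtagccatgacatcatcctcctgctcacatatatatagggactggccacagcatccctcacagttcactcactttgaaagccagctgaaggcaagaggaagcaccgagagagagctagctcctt
Only the exact TGACGTCA was searched for this element, not variants of it. The exact sequence begins at position -48 from the start of Sst and is not in the Nts window. It is in 588 of 32851 mouse promoter windows of this length (1.79%). Of the 30 called genes that are named here, 21 had a window in the table, and Sst was the one that held the element. TATAAA, searched on both strands, is in 13.6% of all windows and in those of Ano3 and Pcp4l1 among these genes.

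Sst (chr16:23889667-23890931 in mm9, the build of the deposited table) had 897, 1089 and 779 CPM in TA libraries, against 47.3, 154 and 71.3 CPM in PL libraries. The lowest TA library lay 5.06-fold above the highest PL library. This gave a log2 fold change of 3.35 ± 0.46 (SE, n = 3 libraries a pool) with an edgeR adjusted p of 0.00196, and of 4.27 with an adjusted p of 0.00419 without PL 2 and PL 3. Nts (chr10:101944394-101953053) had 23.1, 30.2 and 45.2 CPM in TA libraries, against 214, 232 and 251 CPM in PL libraries. The PL levels were within a narrow band, and the lowest lay 4.75-fold above the highest TA level. For Nts the log2 fold change was -2.82 ± 0.43 with an edgeR adjusted p of 0.0036, and -2.72 with an adjusted p of 0.0159 without PL 2 and PL 3.

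Uts2d, which encodes a peptide related to urotensin, was also lower in TA. It had 1.36, 3.07 and 14.8 CPM in TA libraries and 178, 105 and 450 CPM in PL libraries. The pools were far apart although each spread widely within itself. Its log2 fold change was -5.25 ± 0.79 with an edgeR adjusted p of 0.0036. Of the 25 peptide precursors listed, which do not include Uts2d, 21 were tested, Sst was called higher and Nts lower in TA, and 19 were not called. Their median log2 fold change was 0.29 (0.46 with genes at 0 in one pool set to their bound against 3 reads), beside 0.01 for all genes tested. Calca, which encodes calcitonin gene-related peptide, a peptide of many motor neurons, had 1247, 1455 and 894 CPM in TA libraries and 338, 955 and 523 CPM in PL libraries. Its pools overlapped, and its edgeR adjusted p was 0.183.

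Of the 21 peptide precursors tested, 4 had all TA libraries above all PL libraries and 2 below, Sst and Nts among them. Over all genes tested this held for 6.26% and 3.91%. The precursors among them that were not called are named here after their values were seen. Pthlh, the parathyroid hormone-related peptide, had 12.6, 43.7 and 37.1 CPM in TA libraries and 0.217, 0 and 0 CPM in PL libraries (edgeR adjusted p = 0.0583). Penk, the precursor of enkephalins, had 182, 61.4 and 90.9 CPM in TA libraries and 3.68, 21.7 and 0.221 CPM in PL libraries (edgeR adjusted p = 0.117). Both were at or near 0 in at least 1 of the PL libraries with few detected genes. Adcyap1, another precursor, had 19.8, 7.04 and 3.87 CPM in TA libraries and 0.108, 1.92 and 0 CPM in PL libraries. Scg2, a granin of secretory vesicles, had 492, 480 and 252 CPM in TA libraries and 813, 903 and 788 CPM in PL libraries (edgeR adjusted p = 0.181).

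**Figure D3:**
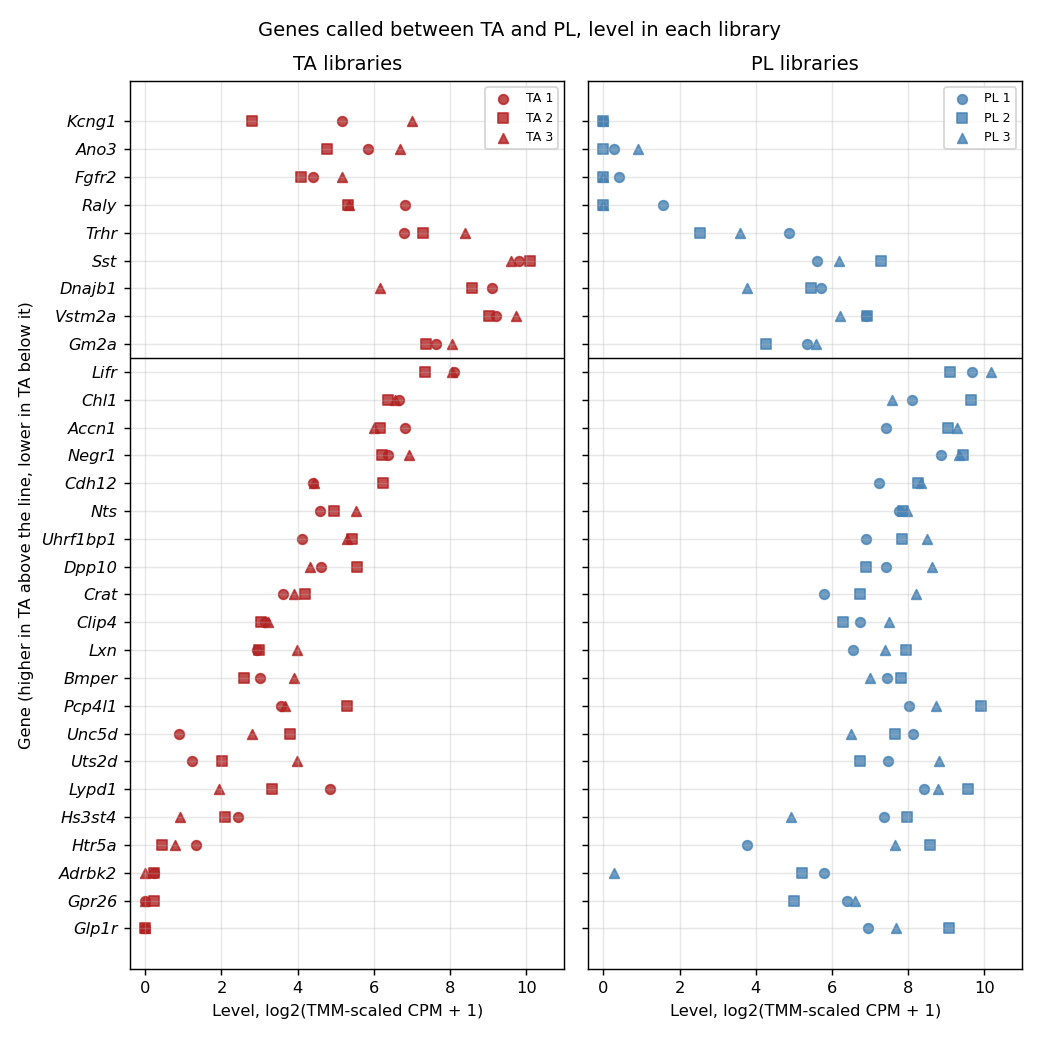
Level of each named called gene in every library, as log2(TMM-scaled CPM + 1), with the TA libraries on the left and the PL libraries on the right. The 9 genes above the line were higher in TA and the 21 below it lower in TA; Glp1r is at 0 in all TA libraries and Kcng1 at 0 in all PL libraries.

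Among receptors, that of thyrotropin-releasing hormone (Trhr) was called higher in TA. The receptor of glucagon-like peptide (Glp1r) and a serotonin receptor (Htr5a) were called lower, and no other serotonin receptor listed was called. Trhr (chr15:44027681-44067459) had 111, 154 and 336 CPM in TA libraries, against 28.4, 4.79 and 11.03 CPM in PL libraries. The nearest libraries, TA 1 and PL 1, were 3.9-fold apart. The log2 fold change was 3.74 ± 0.61 with an edgeR adjusted p of 0.00799. The call held without any single library but not without PL 2 and PL 3 together, where the log2 fold change was 2.81 and the adjusted p 0.178.

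Glp1r (chr17:31038785-31073456) encodes a receptor that raises cAMP when it binds glucagon-like peptide. It had no read in TA 1, TA 2 or TA 3, and 123, 533 and 203 CPM in PL libraries. With 0 reads in the TA libraries and 3725 in the PL libraries, it was at least 1258-fold lower in TA, taking 3 reads over the TA pool as the floor. This bound covers counting error only. The edgeR adjusted p was 0.0217, and the call was lost without TA 1, TA 2 or TA 3 (adjusted p = 0.0842 to 0.112) and without PL 2 and PL 3 together (adjusted p = 0.12). In that last fit PL 1 was the lone library of its pool and was assumed to vary like the other pools.

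Htr5a, a serotonin receptor, had 1.53, 0.361 and 0.703 CPM in TA libraries and 12.7, 378 and 202 CPM in PL libraries. PL 1 was far below PL 2 and PL 3, though still 8.3-fold above the highest TA library. Its log2 fold change was -7.80 ± 1.28 (edgeR adjusted p = 0.00799), and without PL 2 and PL 3 it was -3.86 with an adjusted p of 0.394. The call was also lost without TA 2 or without TA 3 (adjusted p = 0.0692 and 0.0607). Of the 42 receptors of peptides and amines listed, 35 were tested, with Trhr called higher and Glp1r and Htr5a lower in TA and the other 32 not called. Their median log2 fold change was 0.17, or 0.25 with genes at 0 in one pool at their bound, beside 0.01 for all genes.

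A receptor of the superfamily of Trhr, Glp1r and Htr5a, and a receptor kinase, were also lower in TA. Gpr26, an orphan receptor of the same superfamily, had 0, 0.181 and 0 CPM in TA libraries and 82.5, 31.0 and 95.5 CPM in PL libraries. This was 1 read against 1292, a ratio (PL over TA) of 1309 with a 95% counting interval of 234.5 to 51750, and an edgeR adjusted p of 0.0208. Its call was lost without any one of the TA libraries (adjusted p = 0.0849 to 0.0955). Adrbk2, a kinase that phosphorylates activated receptors, had 0.170, 0.181 and 0 CPM in TA libraries and 54.8, 36.4 and 0.221 CPM in PL libraries. TA 1, TA 2 and PL 3 each had 1 read of it, so that PL 3 lay 1.22-fold above the highest TA library only through the scaling of the libraries. There were 2 reads in TA and 621 in PL, a ratio (PL over TA) of 314.6 with an interval of 86.7 to 2604 (edgeR adjusted p = 0.0308). Its call was lost without any one of TA 1, TA 2, TA 3, EDL 2, GS 1, IF 1, IF 2 and IF 3 (adjusted p = 0.0514 to 0.124). Lypd1, a membrane-anchored protein of the family that binds nicotinic receptors, had 27.6, 9.03 and 2.81 CPM in TA libraries and 341, 763 and 442 CPM in PL libraries. Its log2 fold change was -5.29 ± 0.74 (edgeR adjusted p = 0.00196). By its span, Lypd1 overlaps Gpr39 on the other strand, which differed in the same direction without being called (edgeR adjusted p = 0.0542). The libraries did not mark strand, so reads in bases that both genes share cannot be told apart. Whether their exons overlap was not examined.

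Hs3st4 (chr7:131126383-131542504), one of the enzymes that add a sulfate group to the heparan sulfate chains of the cell surface, was lower in TA. It had 4.41, 3.25 and 0.879 CPM in TA libraries, against 163, 250 and 29.3 CPM in PL libraries. PL 3 was the lowest of its pool and lay 6.65-fold above the highest TA library. The log2 fold change was -5.68 ± 0.78 with an edgeR adjusted p of 0.00196, and -5.84 with an adjusted p of 0.000314 without PL 2 and PL 3. It was the one gene called among the 21 tested of 23 heparan sulfate enzymes, whose median log2 fold change was 0.29. Ext2, a polymerase of the chains, named after its values were seen, had 45.4, 26.2 and 14.8 CPM in TA libraries and 206, 254 and 354 CPM in PL libraries (edgeR adjusted p = 0.130).

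In the lists of cell adhesion and axon guidance 4 genes were called, all lower in TA, as were 24 of the 33 genes called in all. Negr1, an immunoglobulin-domain adhesion molecule, had 81.2, 73.0 and 121 CPM in TA libraries and 464, 688 and 649 CPM in PL libraries. Its pools were 3.83-fold apart at their nearest libraries, and its log2 fold change was -2.71 ± 0.36 (edgeR adjusted p = 0.00196). Chl1, of the L1 family of adhesion molecules, had 99.4, 82.0 and 93.2 CPM in TA libraries and 275, 804 and 191 CPM in PL libraries. The log2 fold change was -2.21 ± 0.43 (edgeR adjusted p = 0.0371), and the call held without PL 1 or PL 3 but not without any of the other 13 libraries (adjusted p = 0.0512 to 0.142). These were the genes called among 25 immunoglobulin adhesion molecules tested, 17 of which had a log2 fold change below 0, with a median of -0.38.

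Cdh12, a cadherin, had 20.01, 74.95 and 20.4 CPM in TA libraries and 150, 303 and 323 CPM in PL libraries. The log2 fold change was -2.75 ± 0.52 (edgeR adjusted p = 0.0285), and the call was lost without any one of TA 1, TA 3, EDL 2, IF 1, IF 2 and IF 3 (adjusted p = 0.0508 to 0.111) and without PL 2 and PL 3 (0.302). It was the one called of 25 cadherins tested (median -0.51). Unc5d, of the family of netrin receptors that steer axons, had 0.848, 13.0 and 5.98 CPM in TA libraries and 277, 202 and 88.7 CPM in PL libraries. The pools were 6.82-fold apart at their nearest libraries, and the log2 fold change was -4.84 ± 0.73 (edgeR adjusted p = 0.0036). It was the one called of 16 netrins, Slits and their receptors tested (median -0.31). Among 28 semaphorins, plexins and neuropilins tested none was called (median 0.31). Plxna2, a semaphorin receptor, had the smallest p of that list, with 192, 218 and 230 CPM in TA libraries and 416, 1295 and 810 CPM in PL libraries (log2 fold change -1.98 ± 0.43, edgeR adjusted p = 0.0542). Among 16 ephrins and Eph receptors tested none was called or free of overlap (median 0.03). Bmper, a secreted protein that binds bone morphogenetic proteins, had 7.12, 5.06 and 14.1 CPM in TA libraries and 172, 224 and 126 CPM in PL libraries, with a log2 fold change of -4.31 ± 0.66 (edgeR adjusted p = 0.00378).

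Channel genes were called on both sides. Kcng1, a modulatory potassium channel subunit, had 35.1, 5.96 and 127 CPM in TA libraries and no read in PL 1, PL 2 or PL 3. It was at least 317.1-fold higher in TA against a floor of 3 reads over the PL pool (edgeR adjusted p = 0.0206). TA 3 held 75.1% of its 964 reads, and the call was lost without that library (adjusted p = 0.0779) and without PL 2 and PL 3 (adjusted p = 0.172). It was the one called of 51 potassium channel genes tested, whose median log2 fold change was -0.05. Ano3, of the anoctamin family of membrane proteins, had 56.3, 26.2 and 101 CPM in TA libraries and 0.217, 0 and 0.882 CPM in PL libraries. For Ano3 the log2 fold change was 7.29 ± 1.32 (edgeR adjusted p = 0.0206), and its call was lost without TA 3 (adjusted p = 0.0707) and without PL 2 and PL 3 (adjusted p = 0.12).

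Accn1, an acid-sensing sodium channel, was lower in TA, with 112, 71.0 and 63.1 CPM in TA libraries and 170, 530 and 620 CPM in PL libraries. PL 1 was 1.51-fold above TA 1, while PL 2 and PL 3 were much higher. The log2 fold change was -2.42 ± 0.44 (edgeR adjusted p = 0.0211), and -1.06 with an adjusted p of 0.462 without PL 2 and PL 3. Its call was also lost without TA 2 or TA 3 (adjusted p = 0.124 and 0.0849). Dpp10, an auxiliary subunit of potassium channels, had 23.4, 45.7 and 19.0 CPM in TA libraries and 169, 117 and 393 CPM in PL libraries (log2 fold change -2.95 ± 0.54, edgeR adjusted p = 0.0206), and its call was lost without TA 1 or TA 3 (adjusted p = 0.0924 and 0.0842) and without PL 2 and PL 3 (0.0565). Among 33 sodium, calcium and HCN channel genes tested none was called (median -0.22). Scn9a, a sodium channel, had 52.6, 37.7 and 38.0 CPM in TA libraries and 269, 156 and 120 CPM in PL libraries (log2 fold change -2.09 ± 0.45, edgeR adjusted p = 0.0542). None of 39 receptors of glutamate, GABA and glycine was called (median -0.50).

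Among receptors of growth factors and cytokines, Lifr, a subunit of the receptor of leukaemia inhibitory factor, was lower in TA. It had 274, 160 and 265 CPM in TA libraries and 810, 543 and 1147 CPM in PL libraries, and the log2 fold change was -1.84 ± 0.33 (edgeR adjusted p = 0.0206). This was the smallest called log2 fold change among the named genes, and it kept its call without PL 2 and PL 3 (adjusted p = 0.0407) but not without any one of the TA libraries (adjusted p = 0.0525 to 0.124). It was the one called of 22 neurotrophic factors and receptors tested (median 0.00). Fgfr2, a fibroblast growth factor receptor, had 20.2, 15.9 and 34.8 CPM in TA libraries and 0.325, 0 and 0 CPM in PL libraries. This was 405 reads against 3, a ratio (TA over PL) of 133.2 with a 95% counting interval of 45.3 to 648.8 (edgeR adjusted p = 0.04). The deposited span of Fgfr2 holds 22 other genes with at least 30 reads in the 6 libraries, Gpr26 among them. Gpr26 had 1292 reads in PL libraries against 3 for Fgfr2, so its reads there were not counted to Fgfr2. The value stays uncertain, since the sources used here do not say how reads within the span were assigned. The call of Fgfr2 was lost on leaving out any library but PL 1 (edgeR adjusted p = 0.0509 to 0.0897).

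The other genes called higher in TA have varied roles. Vstm2a, an immunoglobulin-domain protein, had 590.0, 516 and 843 CPM in TA libraries and 117, 120.0 and 73.2 CPM in PL libraries. Its pools were 4.31-fold apart at their nearest libraries, with a log2 fold change of 2.65 ± 0.40 (edgeR adjusted p = 0.0036; 0.103 without PL 2 and PL 3). Gm2a, a lysosomal cofactor of ganglioside breakdown, had 197, 164 and 266 CPM in TA libraries and 40.0, 18.2 and 47.2 CPM in PL libraries (log2 fold change 2.57 ± 0.49, edgeR adjusted p = 0.0304), and its call was lost without any one of TA 1, TA 3, EDL 2, IF 1, IF 2 and IF 3 (adjusted p = 0.0531 to 0.0842). Raly, an RNA-binding protein, had 112, 39.0 and 40.1 CPM in TA libraries and 1.95, 0 and 0 CPM in PL libraries (log2 fold change 6.34 ± 1.12, edgeR adjusted p = 0.0184). The reads of Raly in PL came from PL 1 alone, and its call was lost without TA 1 (adjusted p = 0.0526). Dnajb1, a co-chaperone induced by heat and other stress, had 545, 382 and 70.5 CPM in TA libraries and 51.0, 42.8 and 12.6 CPM in PL libraries (log2 fold change 3.23 ± 0.65, edgeR adjusted p = 0.0424). TA 3 lay just 1.38-fold above PL 1, and the call held only without TA 3, PL 1 or GS 2 (adjusted p = 0.0539 to 0.135 without any other library). Dnajb1 was the one called of 12 immediate early and stress genes tested, a list that summed to 1872, 1351 and 538 CPM in TA libraries and 786, 1304 and 600.3 CPM in PL libraries.

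The other genes called lower in TA included the pair with the lowest p-values of the comparison, Lxn and Pcp4l1. Lxn, the carboxypeptidase inhibitor latexin, had 6.62, 6.86 and 14.8 CPM in TA libraries and 93.6, 247 and 168 CPM in PL libraries, with a log2 fold change of -4.17 ± 0.50 (edgeR adjusted p = 0.00169). Pcp4l1, related to a calmodulin-binding protein of Purkinje cells, had 10.8, 37.9 and 11.6 CPM in TA libraries and 259, 958 and 425 CPM in PL libraries (log2 fold change -4.76 ± 0.60, edgeR adjusted p = 0.00169). The nearest libraries were 6.33-fold apart for Lxn and 6.83-fold apart for Pcp4l1. Clip4, of a family of proteins that link to microtubules, had 7.80, 7.22 and 8.26 CPM in TA libraries and 106, 77.0 and 180.5 CPM in PL libraries (log2 fold change -3.96 ± 0.58, edgeR adjusted p = 0.00352). Crat, carnitine acetyltransferase, had 11.2, 17.3 and 13.9 CPM in TA libraries and 54.7, 105 and 295 CPM in PL libraries (log2 fold change -3.42 ± 0.69, edgeR adjusted p = 0.0424). Uhrf1bp1 had 16.3, 41.9 and 38.3 CPM in TA libraries and 118, 230 and 358 CPM in PL libraries (log2 fold change -2.87 ± 0.56, edgeR adjusted p = 0.0371). For Crat the call held without PL 1, PL 2 or GS 1, and was lost without any other library (adjusted p = 0.0512 to 0.137). For Uhrf1bp1 it held without PL 1, PL 2 or GS 3, and was lost without any other (adjusted p = 0.0512 to 0.121). By their spans, Lxn overlaps Gfm1, Crat overlaps Dolpp1, Dpp10 overlaps Gm10543 and Ano3 overlaps Muc15 on the opposite strand. Reads in bases that such a pair shares cannot be told apart, and whether exons are shared was not examined. The 3 remaining called genes, all lower in TA, have clone names.

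The calls differed in how they stood without the PL libraries that detected few genes. Without PL 2 and PL 3 together, 16 of the 33 calls were kept, 1 of them higher in TA (Sst). The named genes kept on the lower side were Lifr, Negr1, Nts, Clip4, Lxn, Bmper, Pcp4l1, Unc5d, Uts2d, Lypd1, Hs3st4, Adrbk2 and Gpr26. The adjusted p of the named genes not kept ran from 0.0565 (Dpp10) to 0.462 (Accn1), and all 33 genes kept their direction. On leaving out each of the 15 libraries in turn, 14 genes were called every time, and 12 were called both then and without PL 2 and PL 3. Those 12 are Sst, Negr1, Nts, Clip4, Lxn, Bmper, Pcp4l1, Unc5d, Uts2d, Lypd1, Hs3st4 and 1 gene with a clone name. Of them limma voom did not call Hs3st4 (limma voom adjusted p = 0.0658). It did not call Trhr either (limma voom adjusted p = 0.0764). Just outside the threshold, Mzt2 had an edgeR adjusted p of 0.0503, with 3.39, 1.81 and 1.58 CPM in TA libraries and 7.91, 556 and 22.7 CPM in PL libraries. Just inside it, Crat and Dnajb1 had an adjusted p of 0.0424.

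None of the listed genes of motor neuron identity, nearly all of them transcription factors, was called between the pools. Of the 28 listed 26 were tested, and their median log2 fold change was -0.46 (-0.56 with genes at 0 in one pool at their bound). Fign, an enzyme that severs microtubules and is no transcription factor, had the smallest p of that list, with 0, 1.99 and 27.4 CPM in TA libraries and 179, 127 and 464 CPM in PL libraries (edgeR adjusted p = 0.0603). Isl2, a factor of motor neurons, had 0.678, 7.04 and 11.1 CPM in TA libraries and 9.21, 318 and 39.3 CPM in PL libraries, which overlapped (edgeR adjusted p = 0.128). Etv4, a factor known for marking limb motor pools and named after its values were seen, had 0, 0.181 and 2.29 CPM in TA libraries and 23.3, 27.5 and 21.2 CPM in PL libraries. Its libraries did not overlap, and its edgeR adjusted p was 0.148. Pbx3, a Hox cofactor named in the same way, had 162, 134 and 142 CPM in TA libraries and 5.42, 43.4 and 0 CPM in PL libraries (edgeR adjusted p = 0.158). None of 17 Hox genes of lumbar levels was called (median 0.56), and Hoxd11, which patterns the limb levels of the cord, had 1.53, 0.542 and 0.176 CPM in TA libraries and 3.57, 0.639 and 83.0 CPM in PL libraries (edgeR adjusted p = 0.117).

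No retinoid gene was called. Of 15 tested, 10 had a log2 fold change above 0, and the median was 2.08, or 0.88 with genes at 0 in one pool at their bound. Rara, a retinoic acid receptor, had 6.78, 11.2 and 72.3 CPM in TA libraries and 2.71, 0.319 and 0 CPM in PL libraries (edgeR adjusted p = 0.132). Most of these genes had few reads, and PL 2 and PL 3 were the libraries with the most genes at 0. Aldh1a2, the enzyme that makes retinoic acid in limb motor neurons, was at 622, 480 and 379 CPM in TA libraries and 545, 906 and 786 CPM in PL libraries, with overlap (edgeR adjusted p = 0.452). Crabp1, a retinoic acid binding protein, had reads at 0, 1.26 and 0.352 CPM in TA libraries and 0.650, 458 and 0.662 CPM in PL libraries, so that PL 2 alone was high (edgeR adjusted p = 0.116).

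Of 12 markers of alpha neurons and 9 of gamma neurons tested none was called, with medians of 0.02 and 0.29. Stk32a, an alpha marker, had 2.20, 26.4 and 11.8 CPM in TA libraries and 31.8, 45.7 and 202 CPM in PL libraries (edgeR adjusted p = 0.133). None of 10 cholinergic genes, 46 cytosolic ribosomal proteins, 41 genes of oxidative phosphorylation or 9 genes of the axonal cytoskeleton was called, and their medians lay between -0.26 and 0.26.

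Levels in the other pools are given as a description. All TA libraries lay below the 12 other libraries for 12 of the 21 named genes called lower (57.1%), for 80 of the 560 genes with TA below PL (14.3%) and for 0.558% of all genes tested. All PL libraries lay above the 12 others for 4 of the 21 (19.0%), for 89 of the 560 (15.9%) and for 0.621% of all genes tested. Since the named genes were chosen on the same TA and PL libraries, nothing is read from these shares. For 6 of the 21, Nts among them, neither pool lay apart from all other libraries. Hs3st4 was one of the 12 genes with TA lowest, at 2.85 ± 1.80 CPM in TA, 147 ± 111 in PL, 79.4 ± 10.2 in EDL, 97.0 ± 43.6 in GS and 109.5 ± 4.35 in IF (SD, n = 3 each). PL overlapped EDL, GS and IF in Hs3st4. Unc5d, Negr1, Bmper, Lxn, Uts2d, Clip4, Crat, Chl1, Lypd1, Htr5a and Adrbk2 were the others. For Glp1r it was PL that stood apart, with 0 CPM in TA, 286 ± 217 in PL, 5.75 ± 7.36 in EDL, 2.82 ± 4.76 in GS and 0.388 ± 0.551 in IF. PL also lay above all other libraries for Accn1, Uhrf1bp1 and Lypd1. Lypd1 had both TA lowest and PL highest.

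Of the 9 genes called higher, 2 had all TA libraries above the 12 others (22.2%), Vstm2a and Fgfr2, beside 91 of the 897 genes with TA above PL (10.1%) and 0.635% of all genes tested. PL lay below all other libraries for 5 of the 9 (55.6%), Ano3, Fgfr2, Raly, Dnajb1 and Gm2a, beside 174 of the 897 (19.4%) and 1.21% of all genes tested. Fgfr2 thus had both TA highest and PL lowest, and for 3 of the 9, Sst and Trhr among them, neither pool lay apart. Vstm2a had 649.8 ± 172 CPM in TA, 103 ± 26.0 in PL, 192 ± 72.8 in EDL, 169.9 ± 59.3 in GS and 73.0 ± 4.71 in IF. Sst was not particular to TA: it had 921 ± 156 CPM in TA, 90.8 ± 55.9 in PL, 73.9 ± 29.9 in EDL, 1761 ± 734 in GS and 359 ± 95.5 in IF. TA overlapped GS in Sst and lay above IF, and PL and EDL overlapped as the low pools. Trhr had 200.2 ± 119 CPM in TA, 14.7 ± 12.2 in PL, 39.0 ± 15.3 in EDL, 203 ± 84.0 in GS and 298 ± 37.2 in IF. Libraries of TA, GS and IF overlapped in Trhr, and so did those of PL and EDL, the low pools. Nts had 32.8 ± 11.3 CPM in TA, 232 ± 18.2 in PL, 514 ± 74.5 in EDL, 36.6 ± 14.4 in GS and 3.95 ± 1.51 in IF. TA and GS overlapped in Nts, all EDL libraries were above PL, and IF was lowest.

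**Figure D4:**
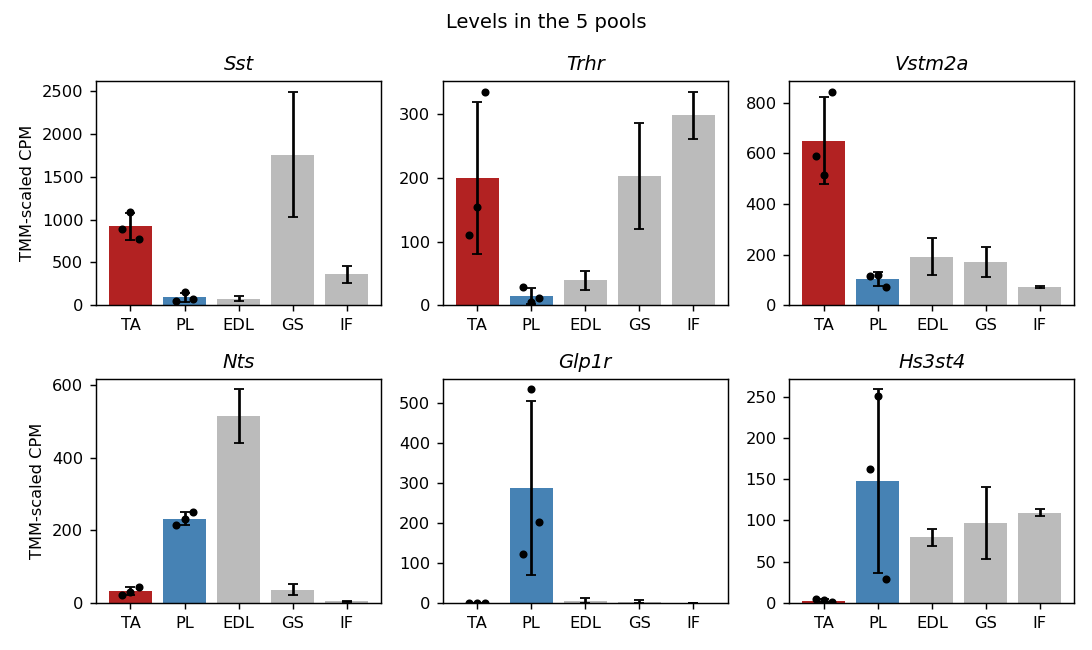
Levels of 6 called genes in the 5 pools, in TMM-scaled CPM; bars are means, error bars the SD over 3 libraries, and points the TA and PL libraries. TA is lowest for Hs3st4 and highest for Vstm2a, PL is highest for Glp1r, and Sst, Trhr and Nts also vary among EDL, GS and IF.

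Markers of other cell types were present in both pools, and none was called in TA against PL. The summed level of 14 endothelial and pericyte genes was 297 to 534 CPM in TA libraries and 620.4 to 1735 CPM in PL libraries, with no overlap. Most of it was Rgs5, at 509, 192 and 221 CPM in TA libraries and 569, 1050 and 1576 CPM in PL libraries (edgeR adjusted p = 0.174), together with Cdh5 in PL 2 (662 CPM). Defining endothelial genes did not all run one way: Pecam1 had 2.04, 5.06 and 1.23 CPM in TA libraries and 0.108, 0 and 0 CPM in PL libraries. Cldn5 had 0, 0.722 and 0 CPM in TA libraries and 14.2, 0 and 17.6 CPM in PL libraries. The sum of 18 interneuron genes was 375 to 411 CPM in TA libraries and 361 to 1071 CPM in PL libraries, and Pax2, Lhx5, Lbx1, Tlx3, Evx1, Sim1 and Gata3 were at 0 in all 6. PL 3 held 364 CPM of Gad2, and PL 2 held 248 CPM of the glycine transporter gene Slc6a5. Oligodendrocyte genes summed to 870 to 1854 CPM in TA libraries and 514 to 2659 CPM in PL libraries, highest in PL 2. Astrocyte genes summed to 4305 to 5548 CPM in TA libraries and 3427 to 4895 CPM in PL libraries, and microglial genes to 52.4 to 150.3 CPM in TA libraries and 32.5 to 254 CPM in PL libraries, with Aif1 and Trem2 at 0 in all 6. Of the Schwann cell genes Prx and Egr2 were at 0 in all 6, and the sum was mostly Pmp22, which other cells also express. Fibroblast genes summed to 43.2 to 108 CPM in TA libraries and 6.71 to 95.0 CPM in PL libraries. The part of these cells in the called differences was not tested.

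**Figure D5:**
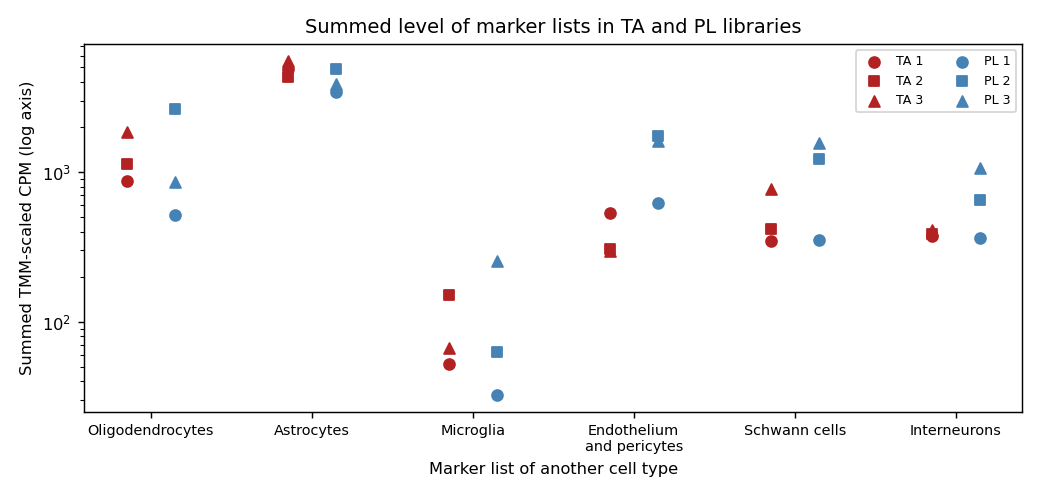
Summed TMM-scaled CPM (log axis) of the marker lists of 6 other cell types in each TA library (red) and PL library (blue). The TA libraries lie below the PL libraries for endothelium and pericytes (297 to 534 against 620.4 to 1735 CPM) and overlap them for the other lists.

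The authors' deposited tables list 11 genes higher in TA and 43 higher in PL, with a largest adjusted p of 0.0296 in the authors' deposited table. Their levels per pool equal the sums of the raw counts over the 3 libraries for all 54 genes, so their folds are ratios of unscaled sums. Called here were 3 of the 11 (27.3%), Sst, Ano3 and Kcng1, and 8 of the 43 (18.6%), namely Gpr26, Htr5a, Hs3st4, Uts2d, Lypd1, Unc5d, Pcp4l1 and Glp1r. Each is 33.3% of the calls made here in that direction. No overlap was found for 6 of the 11 and 18 of the 43, while 5 and 22 had overlapping libraries and 3 of the 43 were not tested. In 6 of the 11 and 31 of the 43, at least 75% of the reads of the higher pool came from 1 library. Qrfpr, a peptide receptor, had 99.8% of its PL reads in PL 1, with 0, 1.08 and 0 CPM in TA libraries and 411, 1.28 and 1.10 CPM in PL libraries (edgeR adjusted p = 0.119). Efnb1, an ephrin, had 0.678, 0 and 0 CPM in TA libraries and 0.650, 348 and 0.221 CPM in PL libraries, so PL 2 alone was high (edgeR adjusted p = 0.141). Adamtsl1, an extracellular matrix protein, had 195, 26.2 and 23.7 CPM in TA libraries and 0.217, 0 and 0 CPM in PL libraries, with no overlap (edgeR adjusted p = 0.0603).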

How the data were processed

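The deposited table holds raw counts of reads for each gene in 15 libraries, as the authors made it. Per the labels' protocols, Nextera libraries of amplified cDNA (Ovation V2 kit), which do not mark strand, were sequenced with single-end reads. Per the submitters' processing notes, Bowtie 0.12.9, the build mm9 and DESeq were used. Not given in the sources used here are the tool that counted reads and the gene annotation. Of 36814 genes, 4 with count cells below 0 (16 cells) were left out, and 16357 had no read in any library. The authors' deposited lists of the pair hold a ratio (fold) and p-values, with counts summed over a pool's libraries.

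Genes were kept by filterByExpr (14340), scaled by TMM and tested with edgeR 4.0.16 (quasi-likelihood F-test, R 4.3.3) on all 15 libraries with 1 coefficient per pool, for TA minus PL. The common dispersion was 0.789. Benjamini-Hochberg adjustment ran over all genes tested. The SE is the size of the log2 fold change divided by the square root of its F value. A pool at 0 is given a bound against 3 counts over the pool, and 1 to 3 reads a ratio with an exact 95% interval (Clopper-Pearson), which both cover counting error only. The alternatives were DESeq2 1.42.0, limma 3.58.1 (voom), other scaling and filters, fewer libraries and a replicate block. With 3 libraries against 3, an exact permutation test cannot go below p = 0.1.

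Named were the called genes without overlap, leaving out clone names, up to 4 called members of each list or else its 2 members with the smallest p, and up to 5 genes of each deposited list with the smallest deposited p among those without overlap. For some genes the text says that they were named after their values were seen. Aldh1a2, Mzt2, Gpr39, Cdh5, Pecam1, Cldn5 and Slc6a5 are not marked in this way, and none of these rules picked them. The members and lists were chosen with earlier results of these data known. No 2 libraries of a pool agreed within counting noise (chi-square at least 77.8 times its degrees of freedom). The promoter windows are from RefSeq.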

Additional observations from a re-analysis of the deposited data

How the results depend on the processing

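All 33 called genes kept their direction under every setting in which they were tested, but the counts moved. Counts of called genes are given as all, higher in TA and lower in TA, then with no overlap higher and lower where these moved. DESeq2 size factors in edgeR gave 55, 10 and 45 (44 lower with no overlap). No filter on low counts gave 545, 153 and 392 (107 and 145). A mean of at least 10 CPM gave 85, 25 and 60 (24 and 57), and left 588 genes with no overlap higher in TA. DESeq2 gave 1065, 451 and 614 (331 and 299), and limma voom 60, 35 and 25 (35 higher with no overlap), of which 20 were among the 33. The TA and PL libraries alone gave 1, 0 and 1 (0 and 1), with 544 genes at an unadjusted p under 0.05. Without PL 2 and PL 3 together 3 were higher in TA (3 with no overlap) and 25 lower, and a single PL library left 2542 genes with no overlap higher and 4295 lower in TA. Leaving out each library in turn gave 23 to 1800 calls, 6 to 1195 higher and 17 to 605 lower, with no overlap for 6 to 1167 and 17 to 448 of them, and 904 to 2837 genes with no overlap higher and 555 to 1331 lower in TA. The 1800 came without PL 1. Calls higher in TA were 27.3% of all calls, against 18.2% with DESeq2 size factors, 58.3% with voom, 42.3% with DESeq2, 66.4% without PL 1, 10.7% without PL 2 and PL 3, 15.3% without PL 3 and 0% with the pair alone. The median log2 fold change of all genes was 0.32 without PL 1, 0.28 with voom and 0.12 with the replicate block and without PL 2, against 0.01. The cause was not tested. The replicate block gave 27 calls, 8 higher and 19 lower in TA, and kept 26 of the 33. Deviations of same-numbered libraries from their pool means had correlations of -0.0226, -0.0023 and -0.0006. No label says whether a number marks a shared animal, litter or day. Correlations over all genes from 3 libraries a pool cannot decide this. The low gene detection of PL 2 and PL 3 limits what can be said of genes at 0 there.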
